A study of Mus musculus with 2 samples.

Results

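The translation initiation and elongation factor genes are described here in mouse CD4+ T cells: every gene whose single symbol in the array's probe annotation begins with Eif1 to Eif6, Eef1 or Eef2, leaving out the interferon-inducible kinase gene Eif2ak2. The rule reads gene names and no measured value, although the set was proposed with results of these data known. It gave 46 genes of the 11807 on the array, read by 85 probe sets, and 45 of the 46 were above background on at least 1 array. The study compared CD4+ T cells cultured with 25 ng/ml of recombinant murine IL-27 and untreated CD4+ T cells. The cells of both groups were isolated as naive T cells from spleens and lymph nodes, taken from female C57BL/6J mice, and both were activated for 60 h on plate-bound antibodies against CD3 and CD28. The labels give neither the number nor the age of the animals. Each group has 1 array, so no test was possible, no p-value is given, and a difference between these arrays cannot be told apart from the variation between any 2 cultures.

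Protein synthesis starts when eIF2, carrying GTP and the initiator tRNA, joins the small ribosomal subunit with eIF1, eIF1A, eIF3 and eIF5. The eIF4 factors bring the capped mRNA, and eEF1 and eEF2 then drive each step of chain growth. Activated T cells make protein at a high rate, and they adjust it through the eIF4E-binding proteins, which mTOR inactivates, and through kinases that phosphorylate eIF2.

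Each value below is an RMA intensity, the background-corrected and normalized brightness of a probe set on a linear scale. A difference is log2 of the intensity on the IL-27-labelled array minus log2 of that on the untreated-labelled array. A gene is represented by its brightest probe set. Background was a floor at an intensity of 20.5, the 95th percentile of 40 genes of other tissues, which 7171 genes (60.7%) passed on either array. Intensities of different genes are not compared, because probe sets bind with different strength.

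Some facts on the arrays come before the results. Socs3, a feedback inhibitor that IL-27 is known to induce, had an intensity of 186 on the IL-27-labelled array and 1122 on the untreated-labelled array. Il10 and Prdm1, which IL-27 is also known to raise, were at least 2.30-fold and 9.26-fold lower, Il21 differed by -3.85, and the genes Gata3 and Il2, normally restrained by this cytokine, by 2.19 and 2.45. Those genes lie opposite to the known response, so the arrays are named throughout as labelled, the IL-27-labelled and the untreated-labelled array. All 10 CD4+ T cell markers measured were above the floor on both arrays, with summed intensities of 17682 on the IL-27-labelled array and 19492 on the untreated-labelled array. Of the markers of other cells, 1 of 7 for B cells, 2 of 10 for myeloid cells and 3 of 7 for CD8 T and NK cells exceeded it, and Ms4a1, Cd79a, Lyz2, Cd14, Cd8a and Ncr1 were below it on both arrays. Their summed intensities, which include the genes below the floor, were 107, 149 and 263 on the IL-27-labelled array, against 96.2, 179 and 353 on the untreated-labelled array. The 3 measurable CD8 T and NK markers lay on both sides: Cd8b1 was 1.48-fold higher, whereas the NK receptor gene Klrd1 was at least 5.57-fold lower and Klrk1 at least 3.33-fold. The myeloid markers Cd68 and Csf1r differed by -0.99 and -0.11, and the B cell marker Cd79b lay at the floor, with 25.6 on the IL-27-labelled array and 20.2 on the untreated-labelled array. In bulk RNA, fewer cells of a type and less RNA per cell cannot be told apart.

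The factor genes differed little between the arrays. Of 45 above the floor, 0 were higher by 2-fold or more and 0 lower by as much, where 1.45% and 2.65% of all genes above the floor were. At 1.5-fold the counts were again 0 and 0, against 5.09% of all genes higher and 7.14% lower. Of the 45, 25 were higher by any amount, beside 51.8% of all genes, with a median difference of 0.03 and quartiles of -0.08 and 0.17. For all genes the median was 0.01 and the quartiles -0.21 and 0.22.

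Many of these genes are bright, and bright genes differed less between the arrays. Of the 969 genes with a mean intensity of at least 1000, 5.78% were at least 1.5-fold apart in either direction, and of the 28 factor genes among them 0 were. The standard deviation of the differences was 0.18 over those 28 factor genes and 0.33 over the 969 genes.

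**Figure D1:**
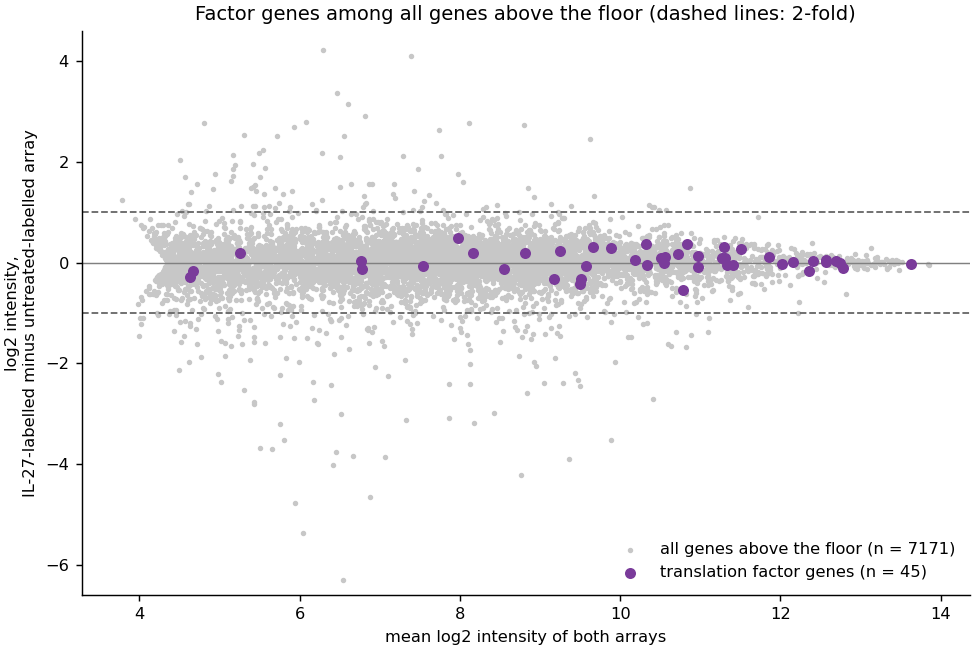
Each point is a gene above the floor, placed by its mean log2 intensity over both arrays (x axis) and by its log2 difference, IL-27-labelled minus untreated-labelled array (y axis). The 45 factor genes lie between -0.55 and 0.49, inside the dashed lines at 2-fold, across a wide range of levels.

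A threshold of 1.25-fold, chosen after the values were seen, was passed upward by 3 factor genes, where 16.4% of all genes passed it, and downward by 4, where 16.5% did. The genes past it upward were Eef1akmt1, Eef1e1 and Eif1ax, and those past it downward were Eif4ebp1, Eif4e3, Eif1b and Eif2b2. Subtracting each array's median turned these counts to 6 upward and 2 downward, as Eif3b, Eif4h and Eif2d were then past the threshold and Eif1b and Eif2b2 (-0.30 and -0.29) were not. With a pseudocount of 16, 3 were past it downward, without Eif2b2 (-0.321). Averaging a gene's probe sets kept 4 downward, but Eif3f (-0.36) replaced Eif2b2 (-0.28) past the threshold. Among the genes with a mean intensity of at least 1000, 2 of 28 factor genes were past it upward and 1 downward, against 10.6% of the genes upward and 10.6% downward.

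**Figure D2:**
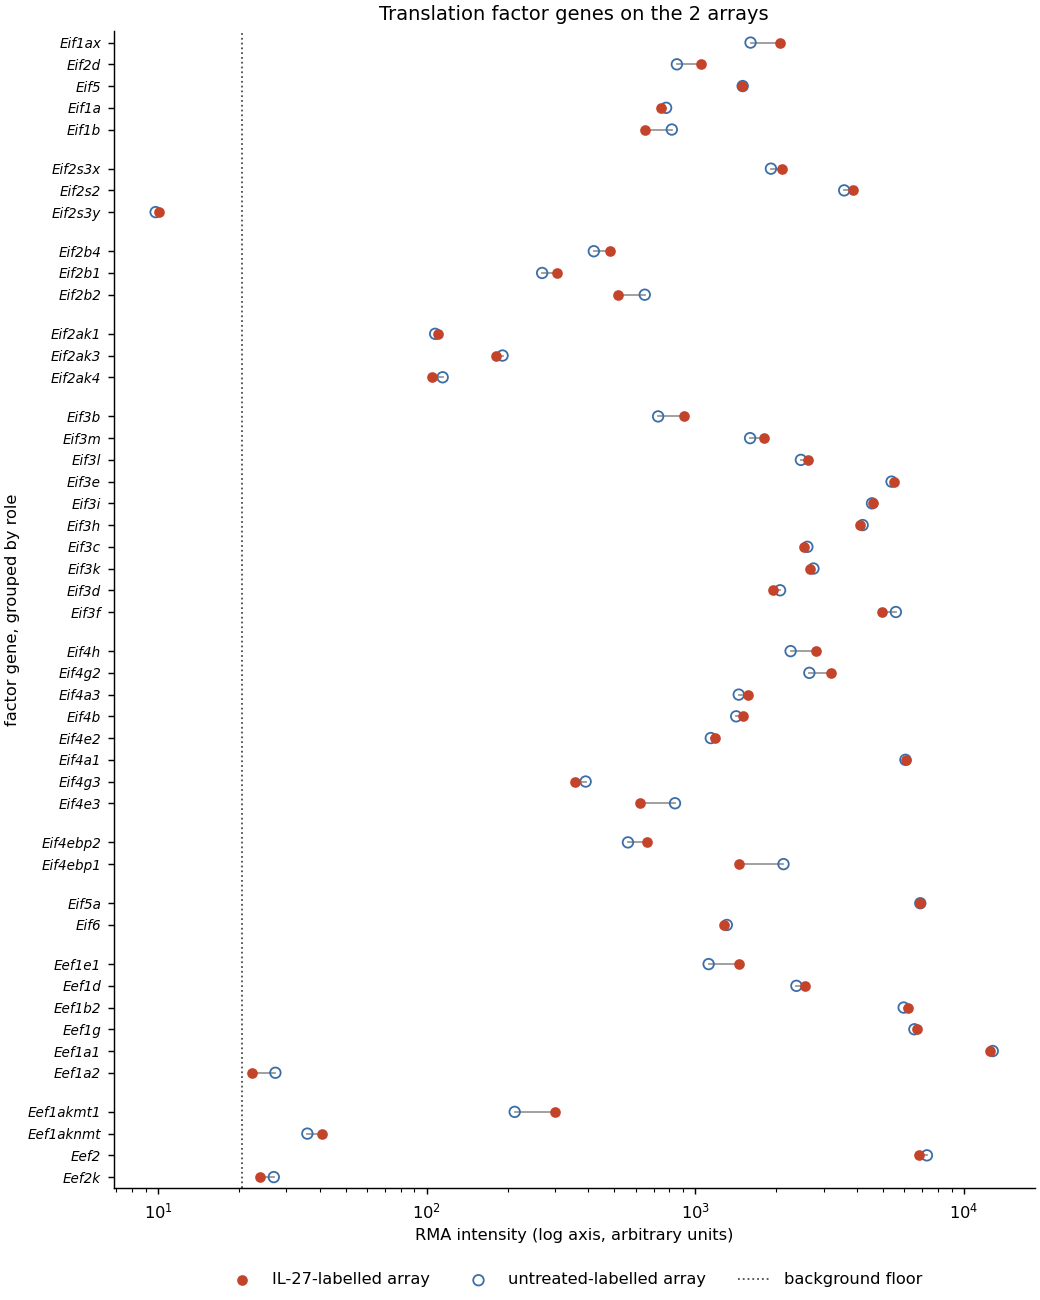
Each row is a factor gene, grouped by role, with its RMA intensity on the IL-27-labelled array (filled red) and on the untreated-labelled array (open blue) on a log axis. In most rows the 2 symbols nearly coincide, the widest gap is that of Eif4ebp1, and Eif2s3y is the only gene left of the dotted background floor on both arrays.

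Sequence around the transcription starts was taken from RefSeq (build GRCm38.p6) for the 35 of 46 factor genes that could be matched, as 300 bases from 250 before to 50 after each start. The array table names no build, so the coordinates belong to these sequences alone. The E-box CACGTG, a site that Myc and related factors can bind and which reads the same on both strands, was present in 9 of the 35 (25.7%), against 12.6% of 5908 matched genes above the floor and 8.09% of all 27025 genes of the table. The windows below show it, in capitals, in genes of the eIF3, eIF4 and eEF2 groups and in Eif1b, one of the genes past 1.25-fold, each on its gene's strand, at chr9:120492570-120492599 (+), chr7:108934335-108934364 (+), chr5:134639488-134639517 (-), chr11:69672595-69672624 (-) and chr10:81176576-81176605 (+).
Eif1b: cgtgcggacggtCACGTGgcggcggcgcgc
Eif3f: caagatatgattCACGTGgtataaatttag
Eif4h: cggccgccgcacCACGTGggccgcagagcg
Eif4a1: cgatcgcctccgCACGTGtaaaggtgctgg
Eef2: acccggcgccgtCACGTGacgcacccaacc
The first base of the E-box lies 24 bases before the start in Eif1b, 68 in Eif3f, 96 in Eif4h, 189 in Eif4a1 and 43 in Eef2. It was also found in Eif3k, Eif5a, Eef1aknmt and Eef2k. The 9 genes with it had a median difference of -0.05, with 3 higher. The 25 above the floor without it had a median of 0.08, with 16 higher, beside 51.8% of all genes. Among the 9, Eif4a1 (0.01) and Eif5a (-0.005) changed sign under at least 1 other way of processing, and the probe sets of Eif4h disagree. Whether the E-box or Myc has a part in these differences was not tested. Myc itself had intensities of 1375 on the IL-27-labelled array and 1181 on the untreated-labelled array. A match is a description of the letters, and 5 of the 35 genes have several starts and thus more sequence to search.

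Many mRNAs of the translation machinery begin with a C followed by a run of pyrimidines, the terminal oligopyrimidine tract, through which mTOR controls their translation. A C followed by at least 4 further C or T bases and beginning within 5 bases of an annotated start, read on the gene's strand, was present in 10 of the 35 factor genes (28.6%), against 24.2% of the matched genes above the floor and 21.2% of the table. That share is near the background. The count rests on the annotated starts, which were not checked against the ends of the mRNAs. It includes the kinase genes Eif2ak1, Eif2ak3 and Eif2ak4 and leaves out Eef2, Eef1b2 and Eif4b. It therefore does not give the share of factor mRNAs that carry the tract. Windows of 30 bases centred on the start are shown for the genes with the longest runs among those above the floor, with the run in capitals, at chr7:108934400-108934429 (+), chrX:94212637-94212666 (-), chr9:78481710-78481739 (-) and chr15:79075208-79075237 (+).
Eif3f: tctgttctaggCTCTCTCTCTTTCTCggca
Eif2s3x: ctgccgagcattttCCTTTTCTCTCCgagc
Eef1a1: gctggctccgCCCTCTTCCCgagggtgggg
Eif3l: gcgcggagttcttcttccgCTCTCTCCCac
The run is 15 bases long in Eif3f, 12 in Eif2s3x, 10 in Eef1a1 and 9 in Eif3l. In Eif3f, Eif2s3x and Eef1a1 it begins before the annotated start. Whether any of these runs is the terminal tract of its mRNA was not tested. The 9 genes above the floor with such a run had a median difference of -0.03, and the 25 without it a median of 0.05. The motifs TTCNNNGAA, which STAT factors can bind, and TGATGNAA, of the kind bound by ATF4, were searched on both strands. They were present in 4 and 2 of the 35 genes, or 11.4% and 5.71%, against 8.4% and 2.69% of the matched genes above the floor. No matches of different motifs overlapped in these genes.

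Among the factors that find the start codon, eIF1A and its relatives lay on both sides. Eif1ax, the X-linked gene of eIF1A, which steadies the scanning ribosome, had an intensity of 2064 on the IL-27-labelled array and 1605 on the untreated-labelled array, a difference of 0.36. Its other probe set read 118 and 63.2 on those arrays and differed by 0.90, past 1.5-fold. Both probe sets were thus higher, by unequal amounts. The related Eif1a read 747 and 778 on the IL-27-labelled and untreated-labelled arrays, a difference of -0.06, and its second probe set, of a type that can bind related transcripts, gave 0.05.

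Eif1b, a close relative of eIF1, the factor that guards the choice of the start codon, was lower, with 649 on the IL-27-labelled array and 817 on the untreated-labelled array (-0.33, by its only probe set). Eif2d encodes a factor that can deliver tRNA without eIF2 and read 1052 on the IL-27-labelled array and 854 on the untreated-labelled array (0.30). Its 3 probe sets above the floor ranged from 0.11 to 0.32. Eif5, which makes eIF2 hydrolyse its GTP at the start codon, was nearly equal, with 1488 on the IL-27-labelled array and 1500.4 on the untreated-labelled array, and its 4 probe sets ranged from -0.01 to 0.15. The median over the 5 genes was -0.01.

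The beta and gamma subunits of eIF2 were slightly higher on the IL-27-labelled array by all of their probe sets above the floor. Eif2s2, the beta subunit, read 3856 on the IL-27-labelled array and 3581 on the untreated-labelled array (0.11). Eif2s3x, the X-linked gamma subunit, read 2110 on the IL-27-labelled array and 1911 on the untreated-labelled array (0.14), and its 3 probe sets ranged from 0.11 to 0.22. Its Y-linked copy Eif2s3y read 10.1 and 9.80 on those arrays, below the floor on both; female animals lack this gene. The 2 genes above the floor had a median of 0.12, and the alpha subunit was not analysed here.

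Subunits of eIF2B, which reloads eIF2 with GTP, did not lie on 1 side. Eif2b1, the alpha subunit, read 306 on the IL-27-labelled array and 269 on the untreated-labelled array (0.19), and Eif2b4, the delta subunit, 479 and 419 on those arrays (0.19). Eif2b2, the beta subunit, read 516 on the IL-27-labelled array and 648 on the untreated-labelled array (-0.33), and its dimmer probe set gave -0.24. Thus 2 of the 3 subunits read were higher and 1 lower, beside 51.8% of all genes higher, with a median of 0.19. The gamma and epsilon subunits were not analysed here.

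Of the kinases that phosphorylate the alpha subunit of eIF2 and thereby lower initiation, the 3 read here were close to 0. The kinase gene Eif2ak2 was left out by the rule. Eif2ak1, the kinase activated by lack of heme, read 110.5 on the IL-27-labelled array and 107.5 on the untreated-labelled array (0.04), and -0.12 by its other probe set. Eif2ak3, which encodes the kinase PERK of the endoplasmic reticulum, read 182 and 192 on the IL-27-labelled and untreated-labelled arrays (-0.08), and Eif2ak4, which encodes the amino acid sensor GCN2, 105 and 115 (-0.13). The sign of Eif2ak1 turned negative with the mean of its probe sets.

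eIF3 is the largest initiation factor and joins the small ribosomal subunit to the mRNA. Subunits such as those of Eif3a and Eif3g were not analysed here. The 10 measured subunits split evenly, 5 higher and 5 lower, where 51.8% of all genes were higher. Their median of -0.01 turned to 0.024 after subtracting each array's median and to 0.031 when a gene's probe sets were averaged. Eif3b, a core scaffold subunit, was the highest of them, with 905 on the IL-27-labelled array and 727 on the untreated-labelled array (0.32). Eif3m read 1794 on the IL-27-labelled array and 1599 on the untreated-labelled array (0.17), by a probe set of a type that can bind related transcripts.

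The other eIF3 subunits were within 0.17 of 0. Eif3f, which carries an MPN domain, was the lowest, with 4969.5 on the IL-27-labelled array and 5577 on the untreated-labelled array (-0.17). Its other probe set, of a type that can bind related transcripts, read 3204 on the IL-27-labelled array and 4729 on the untreated-labelled array (-0.56). Both lay on the lower side while the size differed. Eif3d, a subunit that can bind the cap of some mRNAs, read 1941 on the IL-27-labelled array and 2067 on the untreated-labelled array (-0.09). Eif3l, Eif3e and Eif3i differed by 0.08, 0.03 and 0.01, and Eif3h, Eif3c and Eif3k by -0.03, -0.04 and -0.05. Such small differences have no settled sign: those of Eif3c, Eif3h and Eif3i turned under at least 1 other way of processing.

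**Figure D3:**
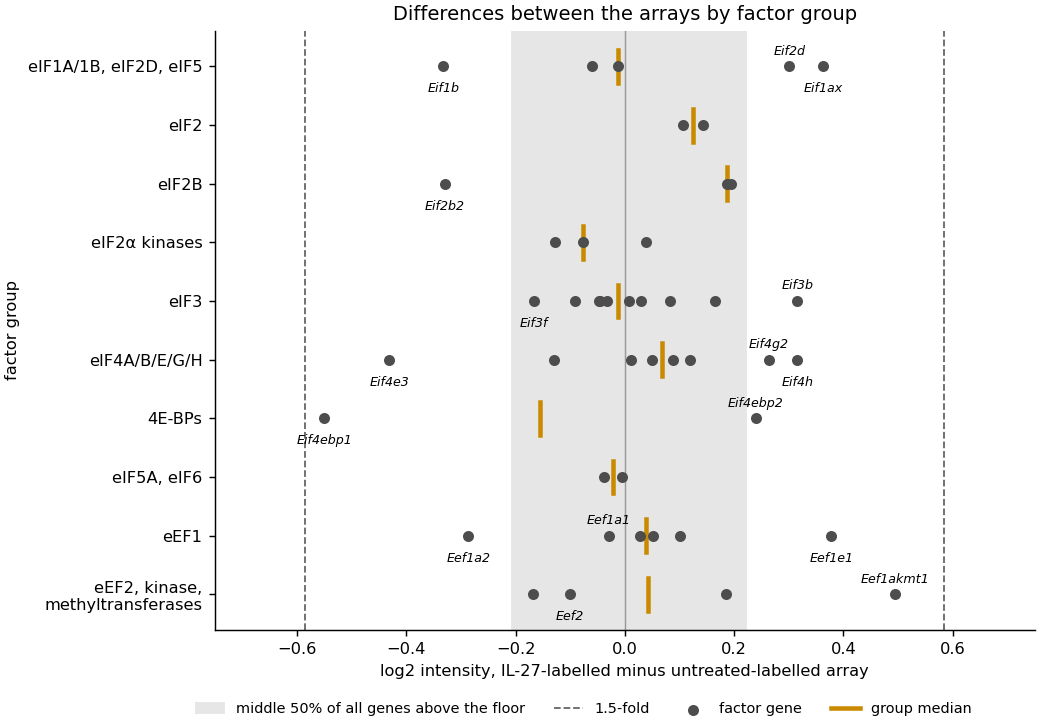
Each point is a factor gene above the floor, placed by its log2 difference, IL-27-labelled minus untreated-labelled array (x axis), in rows by factor group, with the group median in ochre. The grey band holds the middle 50% of all genes above the floor (-0.21 to 0.22), the dashed lines mark 1.5-fold, and no gene lies beyond them.

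The eIF4 factors unwind and deliver the mRNA. Of the 8 read here 6 were higher by any amount, beside 51.8% of all genes, with a median of 0.07. Not all of these signs are settled. Those of Eif4a1 and Eif4e2 turned under at least 1 other way of processing, and the probe sets of Eif4h disagree. The genes of eIF4E itself and of the scaffold eIF4G1, Eif4e and Eif4g1, are not among the 8. Eif4a1, the RNA helicase of the complex, was nearly equal, with 6100 on the IL-27-labelled array and 6052 on the untreated-labelled array (0.01), and its second probe set gave 0.02. Its relative Eif4a3, part of the exon junction complex, differed by 0.12, and the helicase cofactor Eif4b by 0.09.

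Eif4h, another helicase cofactor, read 2816 on the IL-27-labelled array and 2263 on the untreated-labelled array (0.32), but its other 2 probe sets gave -0.04 and -0.07. All 3 are of types that can bind related transcripts, and their signs disagree. Eif4g2, a scaffold related to eIF4G that lacks the site for eIF4E, read 3190.2 on the IL-27-labelled array and 2657 on the untreated-labelled array (0.26), and its 3 probe sets above the floor ranged from 0.04 to 0.26. The scaffold gene Eif4g3 read 357 on the IL-27-labelled array and 391 on the untreated-labelled array (-0.13).

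The eIF4E relatives that bind the cap differed from each other. Eif4e3 was the lowest of the group, with 623 on the IL-27-labelled array and 840.1 on the untreated-labelled array (-0.43). Its second probe set read 550.05 on the IL-27-labelled array and 716 on the untreated-labelled array (-0.38), close to the first. Eif4e2, a cap-binding repressor of initiation, differed by 0.05, and by -0.16 and -0.25 by its other probe sets above the floor, so its direction is unsettled.

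The eIF4E-binding proteins, which hold eIF4E inactive until mTOR phosphorylates them, lay in opposite directions. Eif4ebp1 had the largest absolute difference of the 45 factor genes as read by the brightest probe set, with 1454 on the IL-27-labelled array and 2129 on the untreated-labelled array (-0.55, or 1.46-fold lower). Its other probe set did not pass the floor, so there is no second reading. After subtracting each array's median Eef1akmt1 (0.53) exceeded Eif4ebp1 (-0.51) in size. With the mean of probe sets above the floor Eif1ax (0.63) exceeded it. With the mean of all probe sets, which includes its dim one, Eif4ebp1 fell to -0.377. Eif1ax (0.629), Eef1akmt1 (0.408), Eif4e3 (-0.405) and Eef1e1 (0.378) were then larger in size. Eif4ebp2 read 663 on the IL-27-labelled array and 561 on the untreated-labelled array (0.24), and its 3 probe sets above the floor, at 0.24, 0.27 and 0.43, were all higher.

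By their brightest probe sets Eif5a and Eif6 were close to equal on the arrays. Eif5a, the factor that carries the modified amino acid hypusine and eases difficult peptide bonds, read 6853 on the IL-27-labelled array and 6875 on the untreated-labelled array (-0.005), with -0.17 by its second probe set. Both of its probe sets are of types that can bind related transcripts. Eif6, which keeps the ribosomal subunits apart, read 1276 on the IL-27-labelled array and 1309.7 on the untreated-labelled array (-0.04).

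Elongation factors of the core cycle lay close to 0. Eef1a1, which delivers aminoacyl-tRNA to the ribosome, read 12531 on the IL-27-labelled array and 12791 on the untreated-labelled array (-0.03). Its exchange factor subunits Eef1b2, Eef1d and Eef1g differed by 0.05, 0.10 and 0.03, and Eef1d by 0.24 with its second probe set. Eef2, which moves the ribosome along the mRNA, read 6786 on the IL-27-labelled array and 7277 on the untreated-labelled array (-0.10).

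Other genes of the elongation groups differed more. Eef1e1, which encodes an auxiliary protein of the multi-tRNA synthetase complex, read 1456 on the IL-27-labelled array and 1121 on the untreated-labelled array (0.38, or 1.30-fold higher). Eef1akmt1, a methyltransferase that modifies eEF1A, read 299.7 on the IL-27-labelled array and 213 on the untreated-labelled array (0.49, or 1.41-fold higher), and its second probe set gave 0.32. These were the largest positive differences among the 45 by the brightest probe set, but Eif1ax (0.63) exceeded both (0.38 and 0.41) when probe sets were averaged. Another eEF1A methyltransferase gene, Eef1aknmt, read 40.9 on the IL-27-labelled array and 36.0 on the untreated-labelled array (0.19).

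A pair of elongation genes lay just above the floor. Eef1a2, the form of eEF1A used in muscle and neurons, read 22.4 on the IL-27-labelled array and 27.4 on the untreated-labelled array (-0.29). Eef2k, the kinase that inhibits eEF2, read 24.02 on the IL-27-labelled array and 26.98 on the untreated-labelled array (-0.17). Both lie close to the floor of 20.5.

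Several probe sets above the floor were available for 22 factor genes. They give an internal measure of how far readings of the same gene differ, which leaves out the error between cultures. Their differences within a gene had a pooled standard deviation of 0.14, against 0.22 over the 2393 such genes of the array. In 7 of the 22 genes the probe sets had both signs. Eif4e3, Eif2b2, Eef1akmt1 and Eif1ax kept 1 sign across their probe sets, whereas Eif4ebp1, Eef1e1 and Eif1b rest on 1 probe set above the floor each. The brightest probe sets of Eif2s3x, Eif3m, Eif4g2, Eif4h and Eif5a are of types that can bind related transcripts. Without such probe sets Eif2s3x gave 0.22 and Eif4g2 0.23, and Eif3m, Eif4h and Eif5a had none left.

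**Figure D4:**
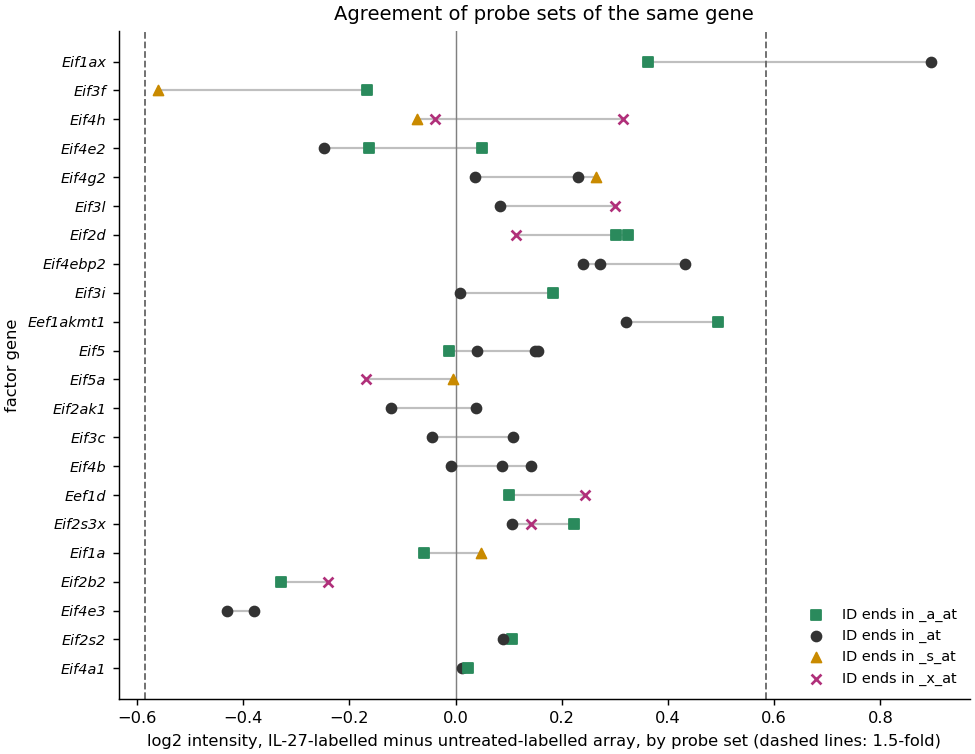
Each row is 1 of the 22 factor genes with several probe sets above the floor, and each symbol is the log2 difference, IL-27-labelled minus untreated-labelled array, of 1 probe set, with its shape giving the probe set type. The spread is widest for Eif1ax (0.36 and 0.90) and narrowest for Eif4a1, and the symbols of 7 genes fall on both sides of 0.

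Other genes of protein synthesis were read from lists, whose counts stand beside 51.8% of all genes higher by any amount, 5.09% past 1.5-fold upward and 7.14% past it downward. The 66 ribosomal protein genes above the floor, a set added after the values were seen, had a median difference of 0.005, with 39 higher, 25 lower, 2 equal and 0 at least 1.5-fold apart. Of 18 aminoacyl-tRNA synthetase and accessory genes 12 were higher, with a median of 0.06 and 0 at least 1.5-fold apart. Qars, the glutamine enzyme, read 1046 on the IL-27-labelled array and 1466 on the untreated-labelled array (-0.49), and Farsa and Lars, for phenylalanine and leucine, differed by 0.42 and 0.29.

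All 7 release and recycling genes above the floor were higher by any amount, where 51.8% of all genes were, with a median of 0.22 and 0 at least 1.5-fold apart. Abce1, which splits ribosomes after termination, read 742 on the IL-27-labelled array and 542 on the untreated-labelled array (0.45), and the recycling factor gene Denr and the release factor gene Etf1 differed by 0.43 and 0.23. The 5 mitochondrial translation factors were also all higher, beside the same 51.8%, with a median of 0.18, led by Gfm2, Tufm and Mrrf at 0.22, 0.18 and 0.18. Every one of these differences was smaller than 1.5-fold.

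Of 8 genes around poly(A)-binding protein, 6 were higher (51.8% of all genes), with a median of 0.18, and 1 was at least 1.5-fold higher (5.09% of all genes). That was Pdcd4, an inhibitor of the helicase eIF4A, with 1704 on the IL-27-labelled array and 1073 on the untreated-labelled array (0.67). Pabpc4 and Paip1 differed by 0.22 and 0.20. The enzymes that make polyamines, hypusine and diphthamide, the modifications of eIF5A and eEF2, had a median of 0.31 with 6 of 8 higher. Srm, spermidine synthase, which makes the substrate of hypusine, read 1757 on the IL-27-labelled array and 1112 on the untreated-labelled array (0.66, past 1.5-fold), the diphthamide enzyme gene Dph5 differed by 0.56 and the polyamine enzyme gene Odc1 by 0.33.

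Among 9 genes of mTOR and MNK signalling 4 were higher, with a median of -0.05. Ddit4, which restrains mTOR, read 2038 on the IL-27-labelled array and 3422 on the untreated-labelled array (-0.75), while Tsc1 and Rps6kb2 differed by 0.32 and -0.15. The list around the eIF2 phosphatase and the stress response held 13 genes, with 4 higher, 9 lower and a median of -0.06. Ppp1r15a, the inducible subunit of the phosphatase that reverses eIF2 phosphorylation, read 122 on the IL-27-labelled array and 246 on the untreated-labelled array (-1.01). Ddit3 and Trib3, target genes of the stress response, differed by -0.85 and -0.60, past 1.5-fold, whereas Asns, also a target, differed by 0.23 and Atf4, its main transcription factor, by -0.02.

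**Figure D5:**
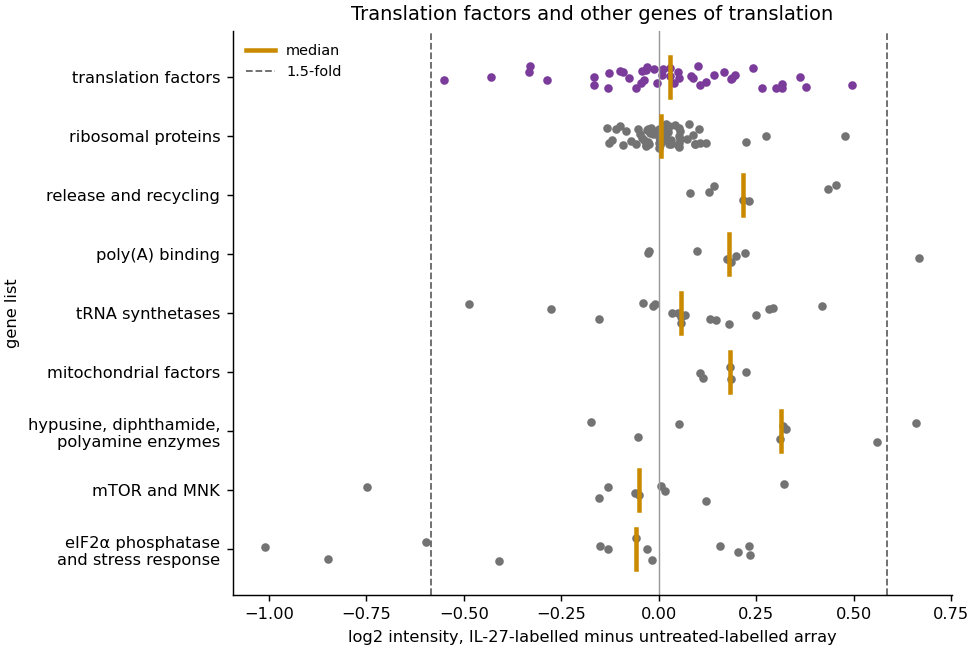
Each point is a gene above the floor, placed by its log2 difference, IL-27-labelled minus untreated-labelled array (x axis), for the 45 translation factor genes (purple) and 8 lists of other genes of translation (grey), with the median in ochre and points spread vertically for sight. The dashed lines mark 1.5-fold, and the points beyond them are Pdcd4, Srm, Ddit4, Trib3, Ddit3 and Ppp1r15a.

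Control probe sets also differed between the arrays. All 18 probe sets of the hybridization controls, bacterial and phage transcripts added to each array, were higher on the IL-27-labelled array, by 0.04 to 0.49 with a median of 0.20. The 3 beta-actin control probe sets differed by 0.03 to 0.08 and the 3 of Gapdh by -0.18 to -0.11. The ratio of 3′ to 5′ probe sets, a sign of RNA integrity, was 0.29 and 0.28 on the log2 scale for beta-actin on the IL-27-labelled and untreated-labelled arrays, and -0.12 and -0.13 for Gapdh. The part of the controls in the differences of the factor genes was not tested.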

How the data were processed

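Gene expression was measured on 2 one-colour microarrays, 1 per group, from biotin-labelled RNA made with a 3′ in vitro transcription kit. The authors deposited 1 intensity per probe set and array, made with RMA, per the submitters' processing notes; no version or setting is stated in the sources used here. The values lie on a linear scale, judged from their range, with medians of 32.4 on the IL-27-labelled array and 33.3 on the untreated-labelled array; whether the arrays were centred further stays unknown.

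Of 22716 probe sets, the platform annotation gave 1 symbol for 18003, several for 287 and none for 4426. Of those with several, 8 include a factor gene and were left out, with 3 factor genes read by no other. All 46 factor genes were found in RefSeq (GRCm38.p6) by Entrez identifier, with 0 symbols changed.

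Log2 values, computed from the deposited intensities, were used without a pseudocount or further normalization. The members and 13 gene lists were chosen with earlier results of these data known. All factor genes are named; other genes are up to 3 per list with the largest absolute difference, and the 7 genes that check the IL-27 response. Asns, Atf4 and the cell markers named as below the floor were chosen after their values were seen. The procedure was run on simulated arrays with planted changes and a chosen level of noise. That checks the calculation and does not measure the error between cultures. Alternatives covered the filter, normalization, probe set choice, pseudocount and dim values. Python 3.11.15, pandas 2.3.3 and statsmodels 0.14.6 were used.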

Additional observations from a re-analysis of the deposited data

Results flagged for a closer look

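Among the control probe sets, which lie outside the comparison of genes, those of 18S ribosomal RNA and of the hybridization controls read higher on the IL-27-labelled array, while the 3 of Gapdh read lower. The 3 probe sets whose identifiers name 18S ribosomal RNA read 1336, 1342 and 626 on the IL-27-labelled array, against 456, 575 and 292 on the untreated-labelled array, differences of 1.55, 1.22 and 1.10. The hybridization controls had a median difference of 0.20 and were higher in 18 of 18 probe sets. Their part in the differences of the factor genes was not tested.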

How the results depend on the processing

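The count of 0 factor genes at least 2-fold apart held under all 9 alternatives. At 1.5-fold, 1 gene was lower after loess normalization (Eif4ebp1, at -0.59) and 1 was higher when a gene's probe sets were averaged, over all of them or over those above the floor (Eif1ax, at 0.63). The average over those above the floor and the 1.25-fold threshold were chosen after seeing the data. With a pseudocount of 16, 3 genes were at least 1.25-fold lower. Subtracting each array's median, which moved the median of all genes to 0.05, gave 6 genes at least 1.25-fold higher and 2 lower. The median of eIF3 turned to 0.024 with that subtraction and to 0.031 with either mean of probe sets. The medians of eIF2, eIF2B, eIF4 and eEF1 kept their sign under all 9, and that of all factor genes stayed between 0.0006 and 0.06. Of the 45 genes, 36 kept their sign under every alternative run and 9 did not. Movement was judged against the pooled standard deviation of 0.22 between probe sets, and 398 of 402 values of single genes stayed within it. That tolerance is about as wide as the spread of the factor genes themselves (standard deviation 0.21), so a gene could change sign and stay within it. The changes of the filter and the raising of dim values left the values of all 45 genes as they were, so these settings could not move them. No paired analysis was possible because each group has 1 array. Leaving out an array was not possible either. Dim genes limit what can be seen: Eef1a2 and Eef2k lie near the floor.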
